A study of Mus musculus with 6 samples.

Results

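The genes described here encode the interleukin-6 (IL-6) family cytokines Il6, Lif and Osm, the receptor chains Il6ra, Il6st, Lifr and Osmr, the transcription factor Stat3 and its feedback inhibitors Socs3 and Socs1. The members are all probe sets (groups of short probes that together read 1 transcript) whose array annotation gives exactly 1 of these 10 gene symbols. This rule found 24 probe sets, at least 1 for each of the 10 genes, among 34945 probe sets with 1 symbol that were tested and 45101 on the array.

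RNA was taken from the tracheal epithelium of male C57Bl/6 mice aged 8 to 12 weeks, either control mice or mice killed 48 h after injury (48 hours post injury, 48 hpi) by breathing 500 ppm SO2 for 4 h, a gas that kills the luminal cells and leaves basal stem cells to repair the lining. Each group held 3 samples from separate experiments, and each sample was a pool of cells from 4 tracheas, so the p-values measure the spread between such pools. The epithelium was peeled off with a protease, dissociated with trypsin and depleted of leukocytes with beads against CD45, and the RNA was hybridized to Affymetrix mouse arrays. The mesenchymal arrays of the study were not analysed here.

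IL-6 family cytokines bind receptor complexes that share the gp130 chain, encoded by Il6st. The complex activates Janus kinases, which phosphorylate STAT3. Phosphorylated STAT3 enters the nucleus and induces its target genes, among them Socs3, whose protein binds gp130 and blocks the kinases. In the airway, IL-6 acting through STAT3 is known to favour the multiciliated over the secretory fate when basal cells differentiate after injury. The arrays read RNA and not the phosphorylation of STAT3.

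Values are the deposited log2 expression values after robust multi-chip analysis (RMA), given as mean ± SD (n = 3 pools). A change is the 48 hpi mean minus the control mean on the log2 scale, with its standard error (SE). A probe set was called higher or lower at a limma p-value below 0.05 after Benjamini-Hochberg adjustment over all 34945 probe sets, and a gene was counted by the brightest of its probe sets. The background level was set by 79 probe sets of chemosensory receptor genes (olfactory, vomeronasal or trace amine receptors), which trachea is taken not to express: it is the value that 95% of them stay under, 4.94 in control and 4.81 in the 48 hpi group. In these bulk samples fewer cells of a type and less RNA per cell cannot be told apart.

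The arrays correlated with each other at 0.992 to 0.996 within the control group, at 0.990 to 0.996 within the 48 hpi group and at 0.953 to 0.973 between the groups. 48 hpi replicate 3 stood apart from the other 48 hpi pools, and was the lowest of its group in 11 of the 15 member probe sets called lower. Of these 15 probe sets, 13 were also called without it. All 9 epithelial markers were above background in both groups, 4 of them called higher (Epcam, Krt5, Krt14 and Krt8) and 2 lower (Ngfr and Scgb3a2). Scgb1a1 changed by -0.51 with no overlap and just missed a call (limma adjusted p = 0.0508), and was called lower under 8 of 21 alternatives. Trp63 was called lower on a dim probe set that was not its brightest (change -0.45, limma adjusted p = 0.0396). Its brightest changed by -0.34 and was not called (limma adjusted p = 0.105). That probe set was called lower with repeated quantile normalization, with the replicate number as a block and without control replicate 1. The summed level of the 9 epithelial markers (log2 of the sum of linear values) was 15.79 to 15.83 in control and 15.35 to 15.70 at 48 hpi. Of 10 leukocyte markers 3 were above background, and Ptprc, which encodes CD45, lay below it at 3.04 ± 0.11 in control and 2.83 ± 0.024 at 48 hpi, as did Itgam, Adgre1, S100a8 and S100a9. Csf1r was the 1 leukocyte marker called, with a change of -0.84 on 1 of its 3 probe sets. The other 9 were not called, and the median change over the list was -0.08. The summed leukocyte level, in which Csf1r was the brightest marker in control, was 8.24 to 8.35 in control against 7.97 to 8.15 at 48 hpi. Of 7 fibroblast markers, Dcn was called, with a change of -1.85, and Pdgfra lay below background in both groups. The other 6 markers were not called and had changes from 0.05 to 1.04, the last in Col3a1, and the median over the list was 0.30. Without 48 hpi replicate 1, Col3a1, Col1a1 and Lum were called higher, with changes of 1.44, 0.70 and 0.43 (limma adjusted p = 0.0453, 0.00742 and 0.0195). With equal hybridization controls Col1a1, Col1a2, Col3a1 and Lum were called higher, and Col3a1 was also with the replicate number as a block (limma adjusted p = 0.0413). The summed fibroblast level, which rests mainly on Dcn, was 10.2 to 10.7 in control and 8.31 to 9.59 at 48 hpi. None of 5 endothelial markers was called, and their summed level was 6.16 to 6.44 in control and 6.11 to 6.23 at 48 hpi. Csf1r and Dcn were thus lower at 48 hpi, as were most of the members described next. The other leukocyte markers were not called, and the other fibroblast markers were not lower. The part of these cells in the results for the members was not tested.

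After injury, RNA for the receptor chains, Stat3 and Socs3 was lower, and no member was higher. Of the 24 probe sets, 15 were called lower (15.2% of all probe sets tested were), 0 were called higher (17.7% of all) and 9 were not called. In 17 probe sets every 48 hpi pool lay below every control pool (22.9% of all), and in 0 did every 48 hpi pool lie above (24.1% of all). By the brightest probe set, 7 of the 10 genes were called lower (17.0% of all genes) and 0 higher (18.9% of all genes). The median change was -0.57 over the 24 probe sets and -0.69 over the 10 genes, against -0.01 over all probe sets and -0.02 over all genes. Probe sets of 1 gene read the same RNA and are not independent. The control mean exceeded background in 16 of the 24 probe sets and the 48 hpi mean in 14, against 19804 and 20326 of all 34945. Lifr 1454984_at and Il6st 1460295_s_at exceeded it in control alone. The called changes ran from -1.76 to -0.33. With the arrays shifted to equal hybridization controls 4 genes were called lower (Il6ra, Il6st, Lifr and Socs3) and 1 higher (Socs1). Under that shift 1278 of all 34945 probe sets were called lower and 7995 higher, against 5311 and 6190 without it. The adjusted p of the methods' t-test left 4 genes (Il6ra, Il6st, Osmr and Stat3). No share of all genes is given for that test, so this count cannot be set against the whole array.

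**Figure D1:**
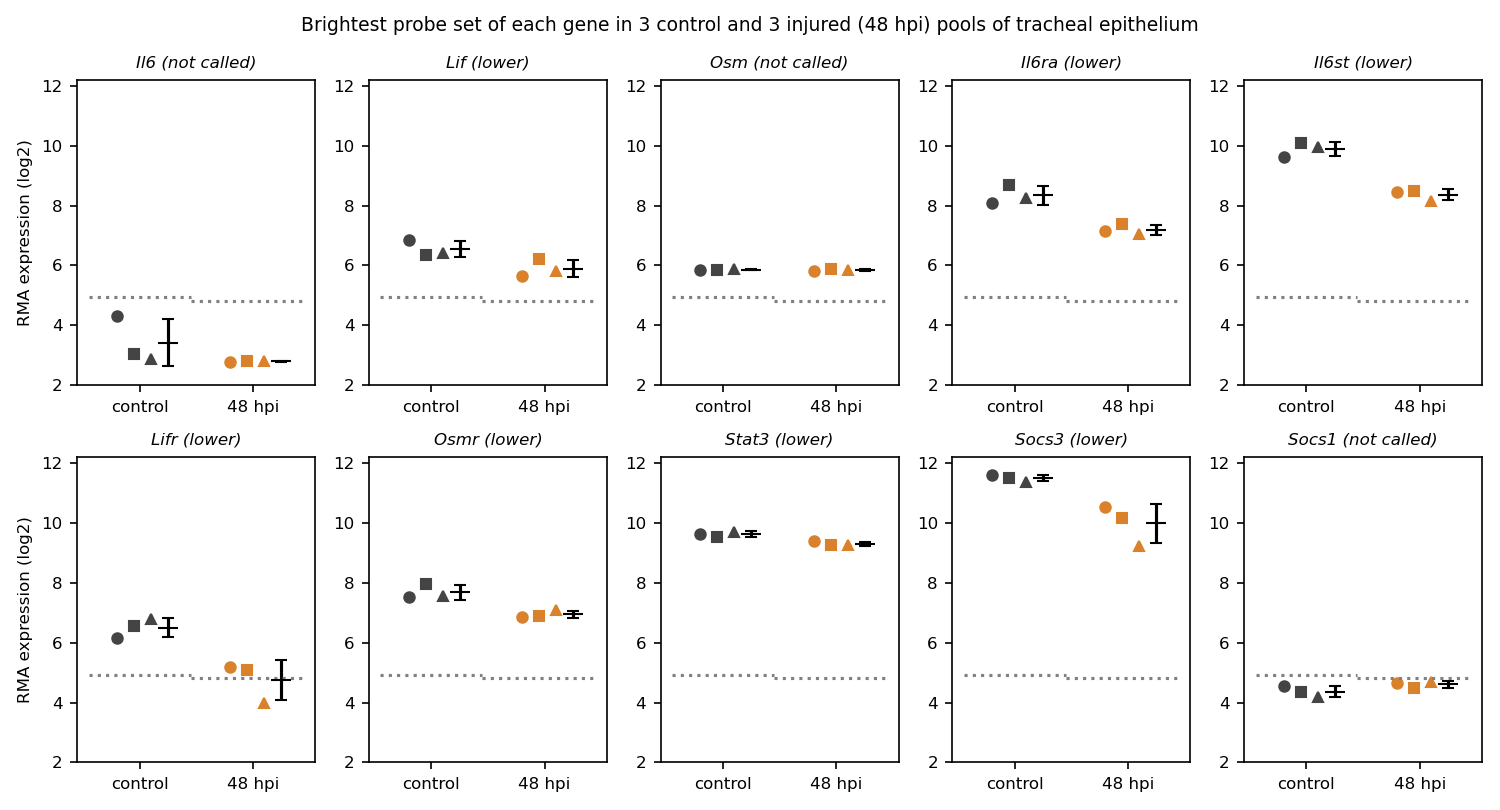
RMA expression (log2) of the brightest probe set of each of the 10 genes, with 1 panel per gene. Circles, squares and triangles are replicates 1, 2 and 3, bars are mean ± SD (n = 3 pools) and dotted lines are the background level of each group; the 48 hpi pools lie below all control pools in Il6, Lif, Il6ra, Il6st, Lifr, Osmr, Stat3 and Socs3, and Il6 and Socs1 lie below the background level in every pool.

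Among the ligands, the epithelium held little RNA for IL-6 itself in either group. The study names Pdgfra-positive fibroblasts of the stroma as the main source of IL-6 early in repair, and the mesenchyme was not read here. Il6, the founding cytokine of the family (chr5:30013114-30019975 in GRCm38.p6, the build of all positions given here), read 4.31, 3.05 and 2.88 in the 3 control pools and 2.78, 2.81 and 2.81 in the 48 hpi pools. All 6 values lie below background, and control replicate 1 alone stands above the rest. The change of -0.61 ± 0.32 (SE) was not called (limma adjusted p = 0.19), and was -0.17 without control replicate 1.

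Lif encodes leukemia inhibitory factor, which signals through Lifr paired with gp130 (chr11:4257568-4272514). Its brightest probe set, 1421207_at, read 6.85, 6.36 and 6.42 in control and 5.66, 6.21 and 5.81 at 48 hpi. The groups did not overlap, though 48 hpi replicate 2 came close to the lowest control pool. The change was -0.65 ± 0.17 (SE), 1.57-fold lower (limma adjusted p = 0.0215). This call was lost without control replicate 1, 48 hpi replicate 1 or 48 hpi replicate 3 (limma adjusted p from 0.0565 to 0.0691). Another probe set, 1450160_at, lay below background with a change of 0.0074, and the mean of both changed by -0.32 (limma adjusted p = 0.0971).

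Osm encodes oncostatin M, a cytokine made mainly by leukocytes, and lies 16.5 kb from Lif on chromosome 11 (chr11:4236785-4241026). It read 5.86, 5.86 and 5.87 in control and 5.81, 5.90 and 5.85 at 48 hpi. The groups overlapped, and the change was -0.012 ± 0.082 (SE), with a 95% confidence interval from -0.20 to 0.18 (limma adjusted p = 0.932).

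The receptor chains fell together, and the shared chain was read lower by every one of its probe sets. Il6st, which encodes gp130 (chr13:112464070-112506860), read 9.64, 10.11 and 9.97 in control and 8.47, 8.47 and 8.17 at 48 hpi on probe set 1437303_at. The gap between the lowest control pool and the highest 48 hpi pool was wider than the spread within either group. The change was -1.53 ± 0.14 (SE), 2.89-fold lower (limma adjusted p = 0.000173). The other 3 probe sets of Il6st, 1452843_at, 1421239_at and 1460295_s_at, changed by -0.77, -0.58 and -0.51, all called lower. With equal hybridization controls these 3 changes were -0.42, -0.24 and -0.16 and none was called (limma adjusted p from 0.164 to 0.59), while 1437303_at was still called. Probe set 1460295_s_at, which can match related transcripts, lost its call when control replicate 1 or 2 or 48 hpi replicate 2 was left out (limma adjusted p from 0.0546 to 0.0669), and it was below background at 48 hpi.

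Il6ra encodes the chain that binds IL-6 and hands it to gp130 (chr3:89869324-89913196). Probe set 1452416_at read 8.07, 8.70 and 8.26 in control and 7.14, 7.37 and 7.07 at 48 hpi. All 48 hpi pools were below all control pools. The change was -1.15 ± 0.16 (SE), 2.22-fold lower (limma adjusted p = 0.00114), and it was called under all 20 alternatives that gave a value. The dimmer 1422270_a_at changed by -0.21 ± 0.12 (SE) with overlapping groups and was not called (limma adjusted p = 0.224).

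Lifr encodes the chain that pairs with gp130 to bind LIF (chr15:7090610-7197489). On 1454984_at it read 6.17, 6.56 and 6.80 in control and 5.18, 5.09 and 3.98 at 48 hpi. The groups did not overlap, and 48 hpi replicate 3 was far below the others. The 48 hpi mean of 4.75 ± 0.67 was within background, but replicates 1 and 2 of that group lay above the background level. Counted down to that level, the mean of Lifr was 3.24-fold lower. This figure is not a lower bound, as it rests on the low value of 48 hpi replicate 3. The fitted change was -1.76 ± 0.31 (SE; limma adjusted p = 0.00295). Without 48 hpi replicate 3 the change was -1.37 (limma adjusted p = 0.00106). Its other probe sets lay below background in both groups: 1425107_a_at changed by -0.49 and was called lower, and 1450207_at changed by 0.20 and was not called, but was called higher without control replicate 1 (change 0.36, limma adjusted p = 0.0297).

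Osmr encodes the chain that pairs with gp130 to bind oncostatin M, 216 kb from Lifr on chromosome 15 (chr15:6813568-6874968). Probe set 1418674_at read 7.53, 7.97 and 7.55 in control and 6.87, 6.89 and 7.09 at 48 hpi. The groups did not overlap, and the change was -0.73 ± 0.14 (SE), 1.66-fold lower (limma adjusted p = 0.00383). The other 2 probe sets, 1418675_at and 1459217_at, were below background and changed by 0.12 and 0.16 without being called. The mean over all 3 probe sets changed by -0.15 (limma adjusted p = 0.268).

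**Figure D2:**
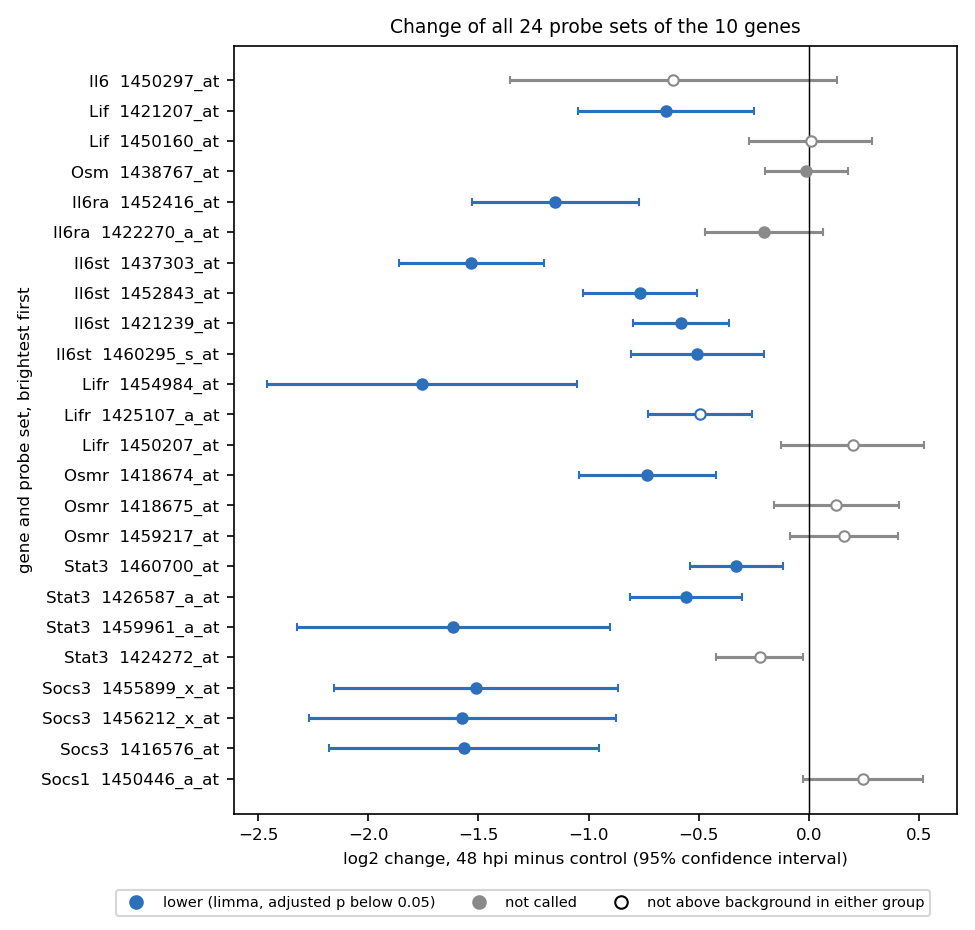
Change of each of the 24 probe sets (log2, 48 hpi minus control) with its 95% confidence interval. Blue marks the 15 called lower, grey those not called and open circles those not above background in either group; the 4 probe sets of Il6st and the 3 of Socs3 all lie to the left of 0, whereas those of Lifr and Osmr fall on both sides.

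Stat3, the transcription factor that carries the signal to the nucleus (chr11:100886806-100939594), was lower on 3 of its 4 probe sets, with changes from -0.33 to -1.61. The brightest, 1460700_at, read 9.64, 9.53 and 9.71 in control and 9.38, 9.26 and 9.26 at 48 hpi. The groups did not overlap, but the change was small at -0.33 ± 0.093 (SE), 1.26-fold lower (limma adjusted p = 0.0259). It lost its call without any 1 of control replicate 1, control replicate 3, 48 hpi replicate 2 or 48 hpi replicate 3 (limma adjusted p from 0.0583 to 0.0927), and its change was 0.015 once each array was shifted so that the hybridization controls were equal. Probe set 1426587_a_at read 9.63, 9.66 and 9.54 in control and 9.21, 9.11 and 8.85 at 48 hpi, a change of -0.56 ± 0.11 (SE; limma adjusted p = 0.0056). With equal hybridization controls its change was -0.21 and not called (limma adjusted p = 0.476). The largest change was on 1459961_a_at, with 7.24, 7.77 and 8.22 in control and 5.52, 6.25 and 6.62 at 48 hpi. Here the change was -1.61 ± 0.31 (SE), 3.06-fold lower (limma adjusted p = 0.00457), and 48 hpi replicate 1 rather than replicate 3 was the lowest. This call was kept under 18 of the 19 alternatives that gave a value, with equal hybridization controls among them (change -1.27). The fourth, 1424272_at, was below background and not called, with a change of -0.22. Averaged over its 4 probe sets, Stat3 changed by -0.68 (limma adjusted p = 0.00094). Which transcripts of Stat3 each probe set reads was not examined.

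Socs3 encodes the inhibitor that STAT3 itself induces (chr11:117966079-117970336), and its RNA was lower on all 3 of its probe sets, with changes from -1.51 to -1.57. On 1455899_x_at it read 11.60, 11.51 and 11.38 in control and 10.53, 10.18 and 9.25 at 48 hpi. The groups were well apart, and 48 hpi replicate 3 was the lowest. The change was -1.51 ± 0.28 (SE), 2.85-fold lower (limma adjusted p = 0.00397). Probe set 1416576_at, which carries no mark of matching other transcripts, read 10.84, 10.55 and 10.34 in control and 9.50, 9.17 and 8.36 at 48 hpi, a change of -1.56 ± 0.27 (SE; limma adjusted p = 0.00266). On 1456212_x_at the change was -1.57. Without 48 hpi replicate 3 the 3 changes were -1.14, -1.24 and -1.18, all called.

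Socs1, a related inhibitor of Janus kinases that interferon signalling induces strongly (chr16:10783808-10785536), read 4.56, 4.36 and 4.18 in control and 4.66, 4.48 and 4.69 at 48 hpi. All 6 values were below background and the groups overlapped. The change of 0.25 ± 0.12 (SE) was not called (limma adjusted p = 0.153), but with equal hybridization controls it was 0.59 and called higher (limma adjusted p = 0.0437).

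**Figure D3:**
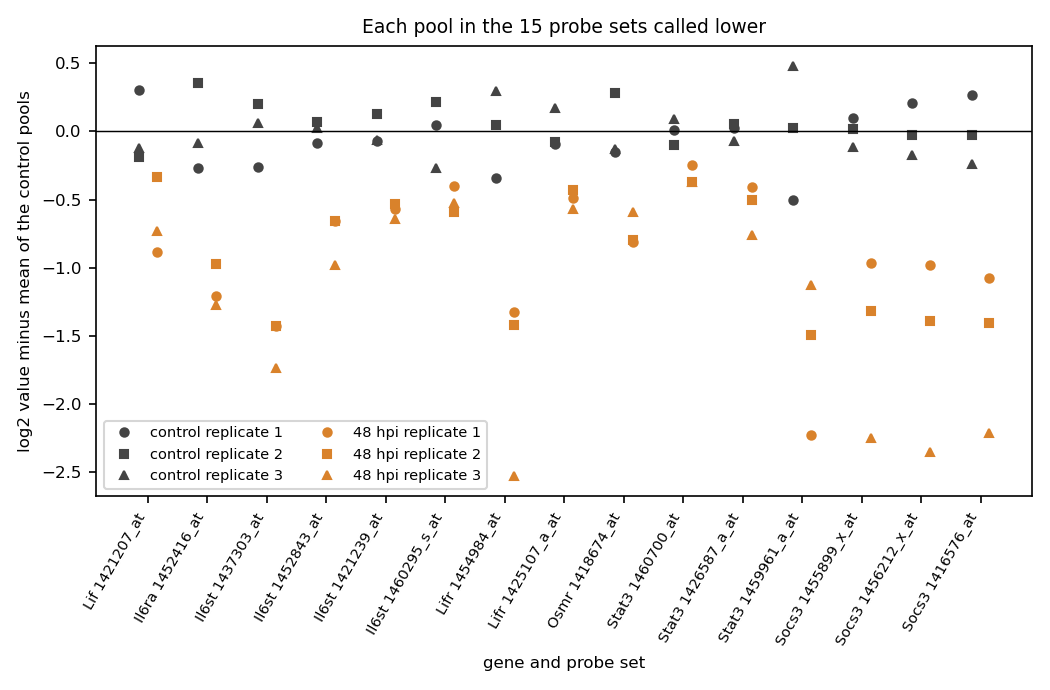
Each pool in the 15 probe sets called lower, as its log2 value minus the mean of the 3 control pools. Circles, squares and triangles are replicates 1, 2 and 3 (grey control, orange 48 hpi; where points coincide 1 hides another); all 48 hpi points lie below all control points of the same probe set, and 48 hpi replicate 3 is the lowest in 11 of the 15.

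STAT proteins bind DNA at sites of the form TTCNNNGAA, which reads the same on both strands. The motif was searched in RefSeq promoter windows of GRCm38.p6, from 250 bases before to 50 bases after each annotated start. Of 32851 windows in the genome 8.3% hold it. The 10 members have windows for 9 genes, with none for Osm, and 1 of these 10 windows, that of Socs3, holds it. The stretch around the match is shown because Socs3 is the best known STAT3 target among the members, beside those of Cish and Icam1, which are described further on and are induced by STAT proteins. Among the other listed genes, Gab1 and Il31ra hold a match too. Of 25 windows of the known STAT3 target genes listed, 1 (4%) holds it, that of Icam1. Capitals mark the motif, and each stretch is 49 bases, 5′ to 3′ on the strand of the gene.

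Socs3 (minus strand, chr11:117969492-117969540): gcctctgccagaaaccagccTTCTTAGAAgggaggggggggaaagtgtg
Cish (plus strand, chr9:107296639-107296687): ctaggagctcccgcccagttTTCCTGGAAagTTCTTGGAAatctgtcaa
Icam1 (plus strand, chr9:21015878-21015926): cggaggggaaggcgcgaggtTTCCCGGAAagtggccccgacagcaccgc

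The match of Socs3 spans bases 154 to 146 before this start. The gene's span in RefSeq reaches 970 bases further upstream, so that other starts are annotated and the match lies inside the span. No window at the outermost start of Socs3 was searched. In Cish the first of 2 matches begins at the start itself. In Icam1 the match spans bases 42 to 34 before the start. All 3 genes were lower at 48 hpi, and so were Il6st, Il6ra and Stat3, whose windows hold no match. Of the other genes with a match, Gab1 was lower and Il31ra was not called. A match is a run of letters and not a measured site.

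Outside the members, the rest of the pathway moved in both directions. Of 44 other listed genes 37 were measured, of which 6 were called higher, 7 lower and 24 not called, with a median change of -0.04 that lies close to that of all genes. These shares are near the background of 18.9% higher and 17.0% lower. Of the 7 genes lower, Ctf1, Jak2, Stat2, Ptpn1 and Gab1 were not called with equal hybridization controls, while Cish and Gab2 were. The remaining listed genes were not analysed here.

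Of 5 other ligands measured, 1 was higher and 1 was lower (18.9% and 17.0% of all genes were). Clcf1, a cytokine of the ciliary neurotrophic factor group, read 6.00, 5.64 and 5.73 in control and 6.31, 6.19 and 6.71 at 48 hpi. All 48 hpi pools were above all control pools, with a change of 0.61 ± 0.15 (SE; limma adjusted p = 0.016), and the call was lost without control replicate 2 or control replicate 3 (limma adjusted p = 0.063 and 0.0583). Ctf1, which encodes cardiotrophin 1, a ligand of gp130 and Lifr, read 7.93, 7.80 and 7.90 in control and 7.32, 7.06 and 6.82 at 48 hpi, a change of -0.81 ± 0.13 (SE; limma adjusted p = 0.00202). None of the 3 other receptor chains measured (Cntfr, Il27ra and Il31ra) was called.

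Of 9 other Janus kinases and STATs, 2 were lower and 0 higher (17.0% and 18.9% of all genes were). Jak2, a kinase bound to gp130 and other cytokine receptors, fell from 8.32 ± 0.12 to 7.71 ± 0.094, a change of -0.61 ± 0.10 (SE; limma adjusted p = 0.00211). Stat2, a STAT of the interferon response, changed by -0.89 ± 0.20 (SE; limma adjusted p = 0.00918) from 5.69 ± 0.03 to a level within background. Jak1, the main kinase of gp130, read 8.25 ± 0.013 in control and 8.03 ± 0.17 at 48 hpi and was not called (change -0.22, limma adjusted p = 0.148), but was called lower without 48 hpi replicate 1 (change -0.32, limma adjusted p = 0.0428).

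Of 14 feedback and inhibitor genes, 2 were higher, 2 lower and 10 not called, no larger a share in either direction than the 18.9% and 17.0% of all genes. Cish, an inhibitor induced by STAT5, read 8.21, 7.63 and 7.67 in control and 6.85, 6.66 and 6.78 at 48 hpi, a change of -1.07 ± 0.16 (SE), 2.11-fold lower (limma adjusted p = 0.00126). Ptpn1, a phosphatase that acts on Janus kinases, changed by -0.40 ± 0.095 (SE; limma adjusted p = 0.0128) and lost its call without control replicate 2. Socs6, a further gene of the SOCS family, was higher by 0.68 ± 0.15 (SE; limma adjusted p = 0.00802). Ptpn11, which encodes the phosphatase SHP2 that docks on gp130, was higher by 0.37 ± 0.11 (SE; limma adjusted p = 0.0346), and its call was lost without control replicate 1, control replicate 3, 48 hpi replicate 2 or 48 hpi replicate 3 (limma adjusted p from 0.073 to 0.0994). In 7 genes of the list whose brightest probe set was not called, another was: Socs2 (3 lower, from -1.49 to -0.34), Socs5, Socs7, Pias2 and Ptpn6 (1 lower each), Socs4 (2 higher, 0.71 and 0.87) and Ptpn2 (1 higher).

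Among the genes for receptor shedding and adaptors, 3 of 6 were higher and 2 lower (18.9% and 17.0% of all genes were). Adam17, the protease that releases soluble IL-6 receptor, read 8.07, 8.26 and 8.46 in control and 8.87, 8.79 and 8.97 at 48 hpi. The groups did not overlap, and the change was 0.61 ± 0.12 (SE), 1.53-fold higher (limma adjusted p = 0.00436). Adam10, a related protease, was higher by 0.36 ± 0.098 (SE; limma adjusted p = 0.0235), a call lost when control replicate 1 or 2 or 48 hpi replicate 2 was left out (limma adjusted p from 0.0602 to 0.0832). Shc1, an adaptor that links receptors to Ras, was higher by 0.56 ± 0.087 (SE; limma adjusted p = 0.00165). The docking proteins Gab1 and Gab2, which recruit SHP2 and PI3 kinase, were lower, with changes of -0.42 ± 0.089 and -0.94 ± 0.19 (SE; limma adjusted p = 0.00727 and 0.00656). Grb2, an adaptor to Ras, was not called on its brightest probe set, with a change of -0.08, but was higher on another by 0.59 (limma adjusted p = 0.00135) and on the mean of both by 0.25 (limma adjusted p = 0.0242).

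Known STAT3 target genes also went both ways. Of 27 genes, 9 were called lower, 5 higher and 13 not, with a median change of -0.02 (17.0% of all genes were lower and 18.9% higher). Those lower with the smallest p were Vegfa, a growth factor for blood vessels, and Cebpb, a transcription factor of acute phase and epithelial genes. Vegfa read 8.34, 8.10 and 8.02 in control and 6.68, 6.66 and 6.25 at 48 hpi, a change of -1.63 ± 0.14 (SE; limma adjusted p = 0.00013). Cebpb read 11.56, 11.52 and 11.32 in control and 10.54, 10.40 and 10.18 at 48 hpi, a change of -1.09 ± 0.12 (SE; limma adjusted p = 0.000345). In both genes the groups were apart by more than the spread within them.

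The remaining genes called lower, named after their values were seen, include acute phase proteins made by the liver and by airway epithelium, haptoglobin (Hp, -2.51) and lipopolysaccharide binding protein (Lbp, -1.44). The others were the transcription factors Cebpd (-1.16), Junb (-0.99) and Fos (-0.32), the membrane mucin Muc1 (-0.63) and the adhesion molecule Icam1 (-0.53). Fos lost its call without any 1 of 5 arrays, all but 48 hpi replicate 1, and its change was 0.02 with equal hybridization controls. Icam1 lost its call without control replicate 1, control replicate 2, 48 hpi replicate 2 or 48 hpi replicate 3, and Muc1 without control replicate 1 or control replicate 2. Neither was called with equal hybridization controls.

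The largest rises on the list were in Birc5 and Timp1. Birc5 encodes survivin, which is made by dividing cells and serves in mitosis, and read 6.54, 6.65 and 6.59 in control and 10.43, 10.37 and 10.71 at 48 hpi, a change of 3.91 ± 0.11 (SE; limma adjusted p = 1.47e-06). Timp1, an inhibitor of matrix metalloproteinases, read 5.75, 5.82 and 6.00 in control and 8.68, 9.20 and 9.37 at 48 hpi, a change of 3.23 ± 0.17 (SE; limma adjusted p = 9.89e-06). Both were more than 2 log2 units above every control pool in each injured pool. The other 3 genes called higher, named after their values were seen, were the oxygen-regulated transcription factor subunit Hif1a (0.45), cyclin D1 (Ccnd1, 0.45) and the NF-kB cofactor Bcl3 (0.36). Ccnd1 lost its call without control replicate 1, control replicate 3, 48 hpi replicate 2 or 48 hpi replicate 3, and Bcl3 without any 1 of 5 arrays, all but 48 hpi replicate 2. Other probe sets were called lower in Mcl1, a survival factor (4 of its 6), and in Il4ra (1 of its 3), whose brightest probe sets were not called.

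**Figure D4:**
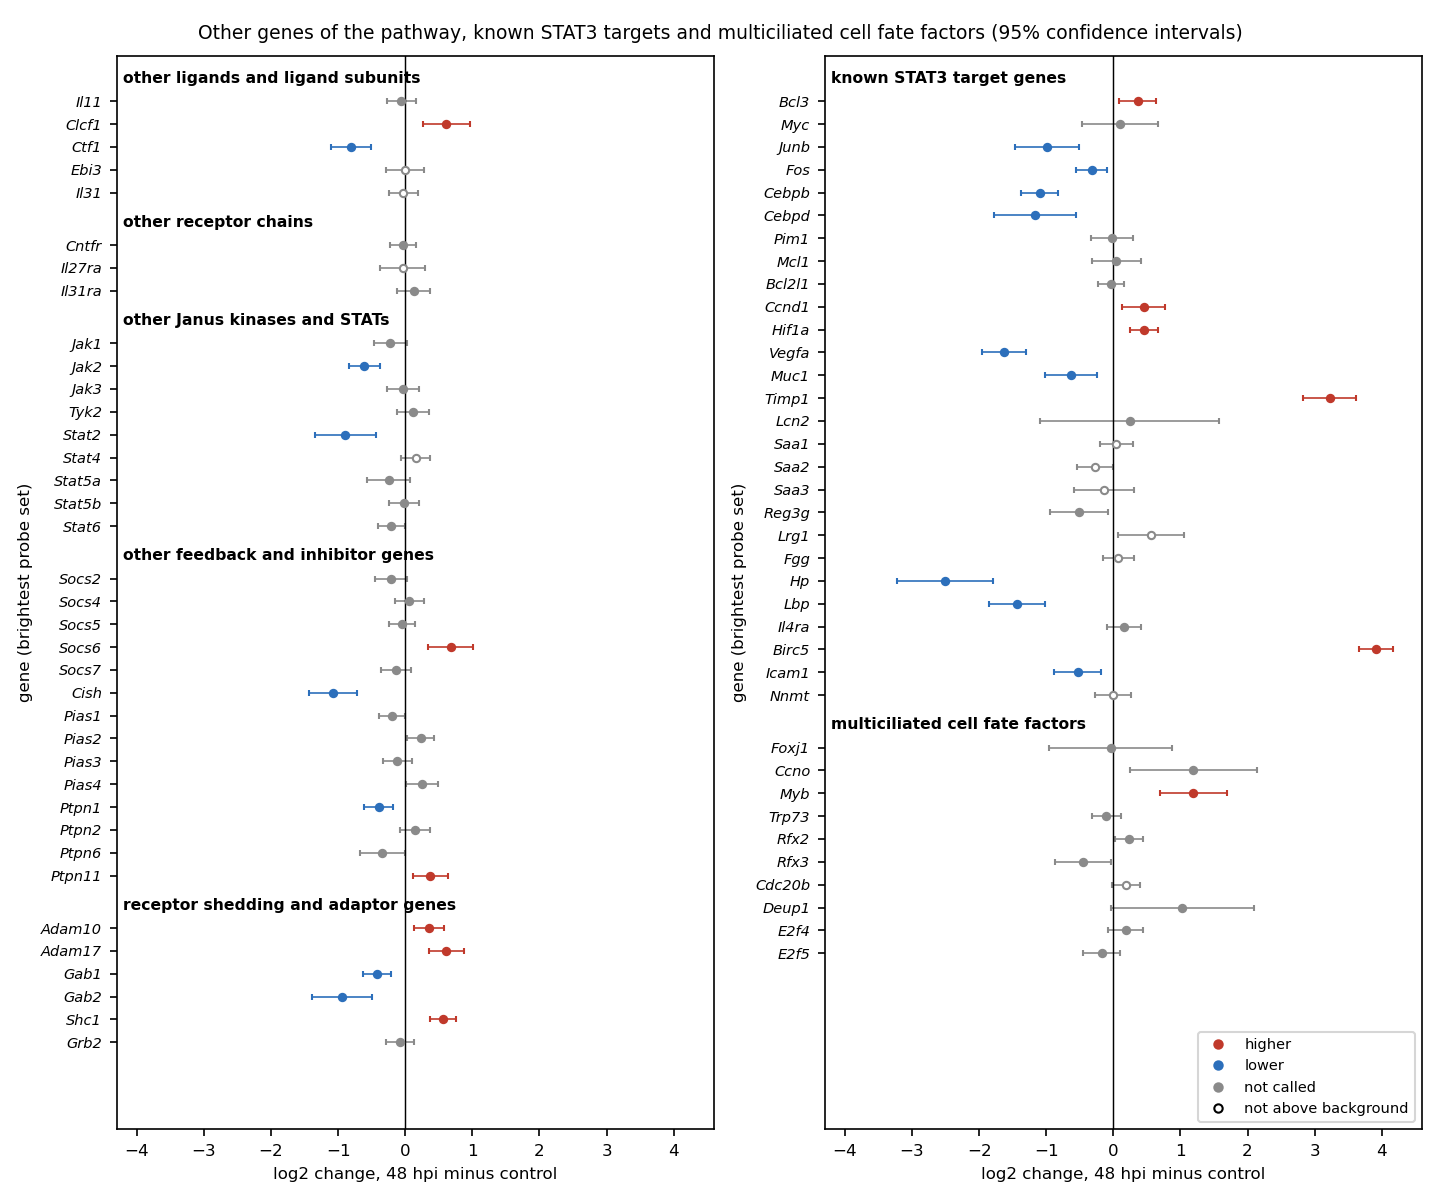
Change of the brightest probe set of each other pathway gene (left), and of each known STAT3 target and multiciliated cell fate factor (right), as the log2 difference of 48 hpi from control with 95% confidence intervals. Red is higher, blue lower, grey not called and open circles not above background; in each of the longer groups of genes the points lie on both sides of 0, with Birc5 and Timp1 farthest to the right and Hp farthest to the left.

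Since IL-6 signalling bears on the multiciliated fate, the factors of that fate were read in the same samples. Of 10 measured, 1 was higher, 0 lower and 9 not called, against 18.9% and 17.0% of all genes called higher and lower, and Mcidas and Gmnc were not analysed here. Myb, an early factor of multiciliated cell differentiation, read 8.28, 8.99 and 8.74 in control and 9.90, 10.19 and 9.49 at 48 hpi, a change of 1.19 ± 0.22 (SE; limma adjusted p = 0.00358). All injured pools were above all control pools. Foxj1, the regulator of motile cilium genes, read 7.34, 8.41 and 7.76 in control and 8.09, 8.43 and 6.88 at 48 hpi, with overlapping groups and a change of -0.038 ± 0.40 (SE; limma adjusted p = 0.957).

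In a pair of genes named after their values were seen, 48 hpi replicate 3 differed from the other injured pools. Ccno, which is needed to multiply centrioles, read 6.29, 6.53 and 6.11 in control and 7.88, 8.24 and 6.38 at 48 hpi. Deup1, a scaffold of the structures on which centrioles form, read 6.30, 7.04 and 6.44 in control and 7.96, 8.48 and 6.43 at 48 hpi. In both genes replicates 1 and 2 lay above all control pools and replicate 3 lay among them. With all pools the changes were 1.19 ± 0.41 and 1.03 ± 0.46 (SE; limma adjusted p = 0.0566 and 0.13), and without 48 hpi replicate 3 they were 1.76 and 1.63 (limma adjusted p = 0.000204 and 0.00195). With all pools kept, both were also called higher with array weights, with the replicate number as a block and with equal hybridization controls, and Ccno with a common median or the filter on dim probe sets (limma adjusted p = 0.0468 and 0.0487). The same pool was the lowest of its group on all 3 probe sets of Socs3, on Lifr 1454984_at and on Il6st 1437303_at, and the part of that pool's makeup in these values was not tested.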

How the data were processed

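Expression of the 6 epithelial samples was read from the deposited values, which are on the log2 scale. The authors amplified the RNA with MessageAmp Premier, hybridized it to Affymetrix mouse arrays and normalized it by RMA in Partek 6.5. The submitters' processing notes also name Affymetrix Expression Console 1.1. RMA sets all arrays to 1 distribution of probe values, so a change is relative to the bulk of probe sets. The values came without detection calls, ranged from 2.01 to 14.6 and had array medians from 4.89 to 4.99. With 3 arrays in each group, precision is limited by their number. The study's analysis of variance covered both tissues and was not repeated.

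Of 45101 probe sets, 34958 have 1 symbol in the array annotation, 932 have several and 9211 have none; 64 are controls. After removal of controls 34945 probe sets of 18193 genes were tested. By Entrez ID 34741 of these probe sets matched RefSeq genes of GRCm38.p6, and 0 changed symbol. Samples were grouped by their labels. The comparison used lmFit and eBayes of limma 3.58.1 (R 4.3.3) with default settings and no block, and was checked on simulated data. An exact permutation test of 3 against 3 pools cannot give a p below 0.1 and was not used. Motifs were searched and plots drawn in Python 3.11.15 with matplotlib 3.10.9.

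The members, gene lists and markers were chosen with earlier results of these data known. Besides the members, the text names every called gene of lists with 8 or fewer genes, the 4 called genes with the smallest p of longer lists, genes with another probe set called, Foxj1, and genes said to be named after their values were seen. The 21 alternatives were other variance models, an unpaired Student's t-test with and without adjustment, other normalizations, filters and probe set choices. They also held a replicate block, weighted arrays, a stricter threshold and leaving out each array.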

Additional observations from a re-analysis of the deposited data

How the results depend on the processing

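Of the 7 genes called lower, Il6ra and Il6st kept their call under every alternative tried. An unpaired Student's t-test with Benjamini-Hochberg adjustment called 9 member probe sets lower (4 genes) and 2 other pathway genes higher. Of the STAT3 targets it called 3 higher and 4 lower. The study used an analysis of variance for its arrays, so this test is not the study's own array analysis. The 3 probe sets of Socs3 were among those lost, with adjusted p from 0.056 to 0.0731 by the t-test. The mean of the hybridization controls was 11.68 in control replicate 1, against 11.15 and 11.23 in the other control pools and 10.90 to 11.14 at 48 hpi. Results with equal hybridization controls therefore rest in large part on that 1 array. Shifting the arrays to equal hybridization controls moved the median change of all probe sets from -0.01 to 0.33 and the calls from 6190 higher and 5311 lower to 7995 and 1278. Relative to that shift 7 member probe sets were called lower and 1 higher (Socs1, 0.59), 4 member genes lower and 1 higher, and 2 other pathway genes lower, and Stat3 1460700_at turned from -0.33 to 0.015. Repeating the quantile normalization left 3 STAT3 targets called higher. At an adjusted p below 0.01, 3 other pathway genes were called higher, and 3 STAT3 targets higher and 5 lower. Leaving out each array in turn gave 12 to 14 member probe sets called lower, 0 to 1 higher (Lifr 1450207_at, without control replicate 1), 5 to 7 member genes lower and 3 to 4 STAT3 targets called higher. No share of all probe sets called is given for the t-test, the repeated quantile normalization, the stricter threshold or the left-out arrays. These counts therefore cannot be set against the whole array.

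With the replicate block 15 member probe sets were called lower, and over all probe sets 6097 were higher and 5499 lower. The replicate numbers were not taken to pair the samples, as they do not name shared animals. The correlations of same-numbered deviations were 0.127, 0.108 and 0.0972, all positive. Those of differently numbered pools were not computed, so these values cannot decide whether the samples were paired. Ccno and Deup1 were called higher with the block. The low number of arrays and the dim probe sets of Il6, Socs1, Lifr and Osmr limit what can be read from a missing call.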
